A study of Lactuca sativa var. capitata with 10 samples.

Results

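The 6 genes described here are 5 flavonoid pathway genes and MYB111, a transcription factor of the same pathway, out of 38293 genes in the root count table, of which 28458 had at least 1 count. They were picked by locus tag: chalcone synthase J (CHS J, LSAT_2X42860), a further chalcone synthase (CHS, LSAT_2X76880), chalcone isomerase-like protein 2 (CHIL2, LSAT_8X11480), flavonoid 3'-monooxygenase (F3'H, LSAT_5X23101), dihydroflavonol 4-reductase (DFR, LSAT_2X77261) and MYB111 (LSAT_9X181). The study had listed all 6 as higher expressed in chitin-treated roots, from these same libraries. The difference between treatments is therefore what chose them, and it is given below as a description without a test. Measures that did not choose them, such as read ratios between the genes among chitin-treated pools, were tested. Nothing is read from the test of the CHIL2 share, for a reason given below.

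Roots of butterhead lettuce, Lactuca sativa var. capitata cultivar Alexandria, were sequenced at 72 hours post transplanting (hpt). Control plants (PS) stood in potting soil, and treated plants (PS+CH) in the same soil with 2 g of crab chitin per L. Each treatment had 5 pools, and each pool joined the washed roots of 5 plants, so that differences between single plants were averaged within a pool. The plants grew in a greenhouse without strict control of temperature and light. A whole root was extracted, so that fewer cells of a type and less RNA per cell cannot be told apart in any value below.

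Flavonoids are built from phenylpropanoid precursors. Chalcone synthase makes the first committed product, chalcone isomerase closes its ring, hydroxylases such as F3'H decorate it, and DFR leads on towards anthocyanins and proanthocyanidins. In Arabidopsis, MYB111 and its close relatives switch on the early genes of the pathway, including chalcone synthase.

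Library totals were between 17624520 and 18545790 counts, and 3 counts in a library, taken as the floor of detection, equalled 0.157 to 0.173 CPM (read counts divided by the library's TMM-scaled total, on the usual CPM scale). The floor covers counting error only, since PCR copies are not independent molecules. PS replicate 3 stood somewhat apart, being the highest pool for 24.6% of the 23509 genes with at least 10 counts in 1 pool, and PS+CH replicate 2 was the highest for 12.5% of them.

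The primers that the study designed for RT-qPCR are the only sequences of these genes in the sources used here. They are shown for the regulator and for both chalcone synthases, whose counts are set against each other below and which belong to a family whose reads the counting may have split. The study reports that it tried to verify MYB111 and a chalcone synthase gene, which it leaves unspecified, by RT-qPCR. Both had low mean counts in roots and were amplified late, so that this gave no check. All primers are written 5′ to 3′ in lower case.
MYB111 forward: tcatcaaaggtgcaacggga
MYB111 reverse: atagctagcggcactagggt
CHS J forward: tccgagatcaccgcagttac
CHS J reverse: atcgggcaatgggtcagaac
CHS forward: gacatttgagggaggtgggg
CHS reverse: gggcgatccagaagatggag

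All 6 genes had their highest expression in the same pool, PS+CH replicate 2, and PS+CH replicates 2, 3 and 5 were above every PS pool for each of them. Among the 23509 genes with at least 10 counts in 1 pool, 9.15% had these 3 pools above every PS pool. The 6 were chosen as higher in PS+CH, so that nothing is read from this comparison. For MYB111 the value in PS+CH replicate 3 was 2 reads, under the floor. PS+CH replicates 1 and 4 were close to the PS pools. Pools of PS+CH thus spread over a range wider than the difference between the treatment means.

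Of the entry enzymes, CHS J had no read in PS replicates 1 to 5 and 0, 287, 55, 0 and 39 reads in PS+CH replicates 1 to 5. PS+CH pools averaged 4.27 ± 6.70 CPM (SD, n = 5). Set against the per-library floor in PS, this level is at least 26.3-fold higher. Only 3 pools carried the transcript, and 75.3% of its reads came from PS+CH replicate 2. CHS had 0, 3, 2, 0 and 6 reads in PS replicates 1 to 5 and 2, 235, 31, 0 and 86 reads in PS+CH replicates 1 to 5. Here the 3 pools with CHS J were again the highest, while the other 2 PS+CH pools lay among the PS pools. The means were 0.119 ± 0.136 CPM in PS and 3.97 ± 5.47 CPM in PS+CH (SD, n = 5), a ratio of 33.4 (95% counting interval 18.6 to 68.2). This interval, here and below, covers the counting of reads only and leaves out the spread between pools.

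CHIL2 belongs to a group of proteins that lack isomerase activity themselves and that, in Arabidopsis and other plants, bind chalcone synthase and favour the formation of its proper product. It was read in every pool, at 0.111, 0.542, 0.157, 0.760 and 0.925 CPM in PS replicates 1 to 5 and at 1.08, 10.98, 1.73, 0.114 and 4.64 CPM in PS+CH replicates 1 to 5. PS+CH replicates 1, 2, 3 and 5 exceeded all PS pools, although PS+CH replicate 1 exceeded the highest PS pool only by 19 reads to 17. The means were 0.499 ± 0.360 CPM in PS and 3.71 ± 4.40 CPM in PS+CH (SD, n = 5), a ratio of 7.43 (95% counting interval 5.51 to 10.5).

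F3'H, a cytochrome P450 enzyme that adds a hydroxyl group to the B ring, had the most reads of the 6 genes in each pool. It had 1.34, 6.02, 3.51, 2.01 and 3.54 CPM in PS replicates 1 to 5 and 1.94, 57.6, 9.28, 1.36 and 21.3 CPM in PS+CH replicates 1 to 5. PS+CH replicates 1 and 4 lay within the PS range. PS+CH replicate 2 was 42.2-fold higher than PS+CH replicate 4, whereas the means of 3.28 ± 1.80 CPM in PS and 18.3 ± 23.4 CPM in PS+CH (SD, n = 5) had a ratio of 5.58 (95% counting interval 4.97 to 6.37). Spread between pools is left out of this interval, and medians over pools gave a log2 ratio of 1.40 where the means gave 2.48. Among PS pools the highest was 4.51-fold above the lowest.

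DFR had 2, 1, 2, 1 and 0 reads in PS replicates 1 to 5 and 2, 247, 56, 6 and 50 reads in PS+CH replicates 1 to 5. PS+CH replicate 1 had as many reads as PS replicates 1 and 3, so that their order depends on the scaling. The means were 0.0649 ± 0.0452 CPM in PS and 4.06 ± 5.61 CPM in PS+CH (SD, n = 5). Their ratio was 62.5, and its 95% counting interval of 28.7 to 173 shows how little 6 reads in PS fix it. In PS+CH replicate 4 only DFR, with 6 reads, and F3'H, with 24, had more than 2 reads.

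MYB111 had no read in any PS pool and 0, 72, 2, 0 and 11 reads in PS+CH replicates 1 to 5. It was read in the same 3 pools as CHS J and in no other. PS+CH pools averaged 0.950 ± 1.73 CPM (SD, n = 5), which is at least 5.84-fold higher, again against the floor. In PS+CH replicate 3 its 2 reads were themselves under the floor, so that only PS+CH replicates 2 and 5 had MYB111 above it.

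**Figure D1:**
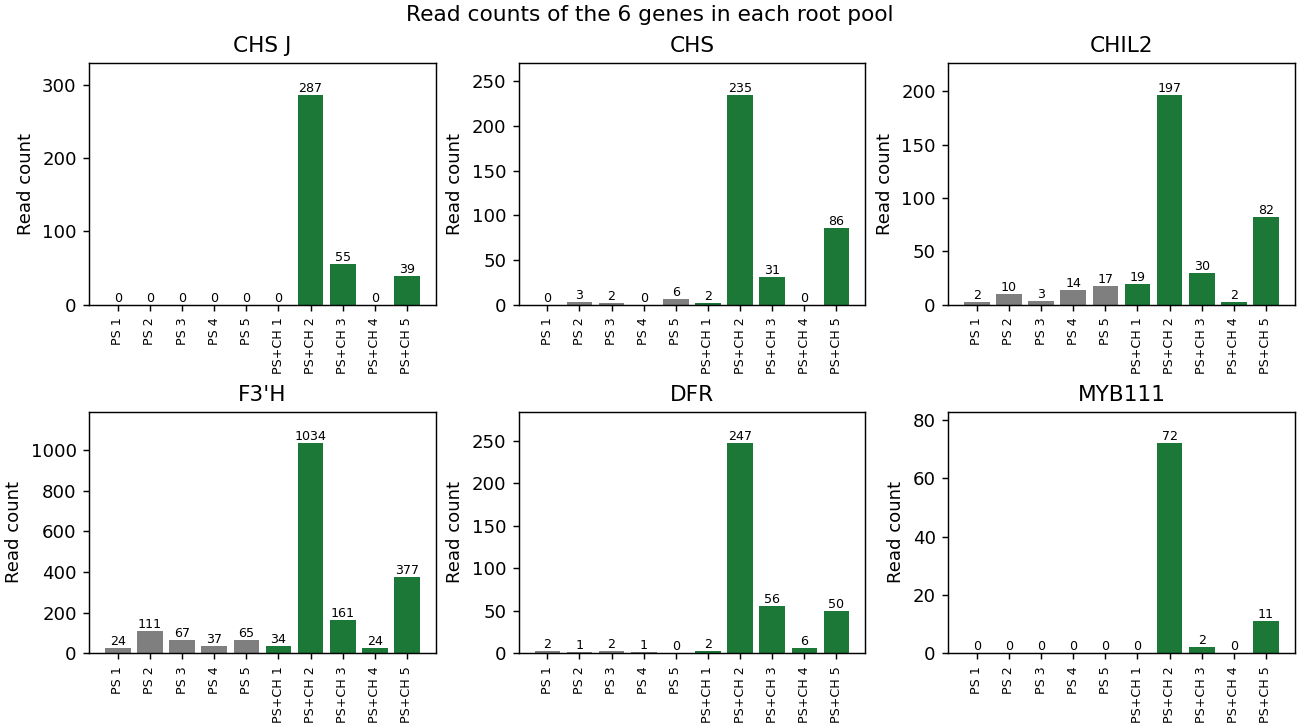
Read counts (vertical axes, linear, one scale per panel) of the 6 genes in each of the 10 root pools, with PS pools in grey and PS+CH pools in green. PS+CH replicate 2 is the highest bar in every panel, followed by PS+CH replicates 3 and 5, and CHS J and MYB111 have no bar in PS.

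The spread among treated pools was large next to that of other genes. The coefficient of variation over the 5 PS+CH pools was 157% for CHS J, 138% for CHS, 119% for CHIL2, 128% for F3'H, 138% for DFR and 182% for MYB111. Its median over 23507 genes was 13.3%, and at least 98.8% of these genes varied less than each of the 6. These genes are of every expression level, while the 6 were chosen on the treatment contrast and most have few reads. Nothing is therefore read from this share. A glutathione S-transferase gene described below (GSTF11) had 134%, and the photosynthesis genes described below had 88.7% to 108%. PS+CH replicate 2 held between 59.7% (CHIL2) and 84.7% (MYB111) of the PS+CH reads of a gene.

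Without PS+CH replicate 2, the log2 ratio of mean CPM fell from 4.72 to 3.05 for CHS J (both lower bounds), from 5.06 to 3.83 for CHS and from 2.89 to 1.92 for CHIL2. It fell from 2.48 to 1.37 for F3'H and from 5.96 to 4.65 for DFR. For MYB111 the lower bound fell from 2.55 to 0.18, so that 1 pool decided its size. Each gene kept the direction with any 1 of the 10 pools left out. This is a description only, since the genes were chosen as higher in PS+CH. CHS J and MYB111, without a read in PS, could not have changed direction. With medians over pools in place of means, the log2 ratio was 3.76 for CHS J, 4.09 for CHS, 1.67 for CHIL2, 1.40 for F3'H and 5.70 for DFR. The median of MYB111 was under the floor in both treatments and gives no ratio.

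**Figure D2:**
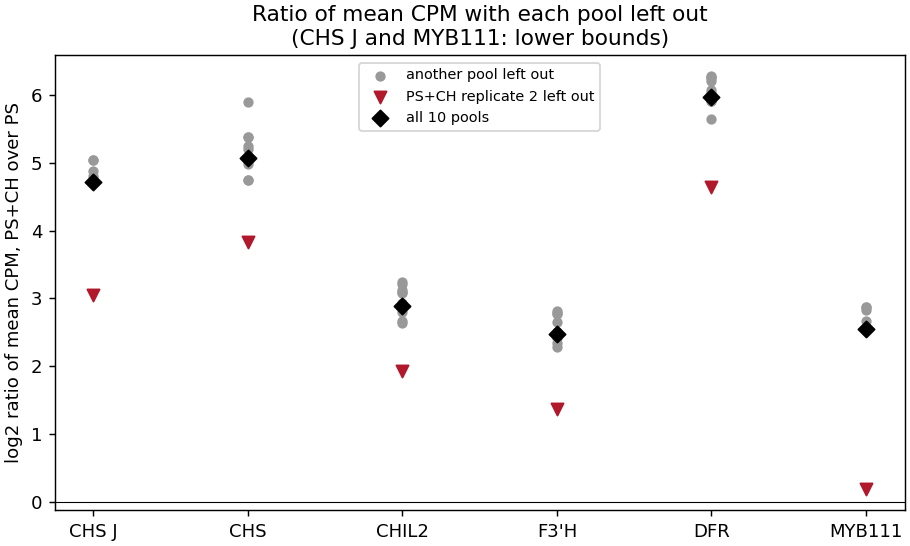
Log2 ratio of mean CPM in PS+CH over PS (vertical axis) for the 6 genes with all pools (black diamonds), without PS+CH replicate 2 (red triangles) and without each other pool (grey points). Values for CHS J and MYB111 are lower bounds against the floor of 3 counts; leaving out PS+CH replicate 2 lowers each gene most, for MYB111 to 0.18.

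The low counts also decided what could be tested across the genome. A filter on low counts kept CHIL2 and F3'H, 2 of the 6 genes, among 21936 genes tested by edgeR's quasi-likelihood test. Of these 2, CHIL2 alone was called a differentially expressed gene (DEG; adjusted p under 0.05 and a 2-fold difference or more), where 0.387% of the tested genes were called higher in PS+CH and 3.32% in either direction. Without the filter 4 of the 6 were called (CHS J, CHS, CHIL2 and DFR), so that the calls depend on the setting. In that fit 0.383% of 28458 genes were called higher in PS+CH and 2.68% in either direction. As this contrast chose the genes, nothing is read from their calls.

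Ratios between the genes show whether they kept fixed proportions from pool to pool. Within a pool such a ratio does not depend on the scaling of libraries. Transcript lengths were not used, so that a share of reads is compared between pools and not read as more or less of a transcript. For 5 pairs of genes or gene groups, Fisher's exact test (two-sided, Benjamini-Hochberg adjustment over the 5) compared the shares across PS+CH pools. Most are not pairs of successive reactions, since CHS J and CHS are both chalcone synthases, CHIL2 lacks isomerase activity and MYB111 is a regulator. The shares are thus of reads and not a balance between reactions. The test weighs counting error in these libraries only, and the reads of 1 pool are not replicates of the treatment. It takes reads as independent, which PCR copies are not, so that its p-values may be too small. With all PS+CH pools, which hold different plants, the adjusted p of this test was under 0.05 for all 5 shares. For 3 of them (CHS J, F3'H and MYB111) the unadjusted p was above 0.05 once 1 pool was left out, so that 1 pool decided the result.

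The balance between the chalcone synthases differed between pools. CHS J took 55.0% (95% exact interval 50.6 to 59.3) of the 522 reads of both genes in PS+CH replicate 2 and 64.0% (52.9 to 74.0) of 86 reads in PS+CH replicate 3. In PS+CH replicate 5 it took 31.2% (23.2 to 40.1) of 125 reads, so that CHS had more reads there (Fisher's exact test over 4 pools, adjusted p = 9.69e-07). PS+CH replicate 5 decided this difference, since the unadjusted p was 0.0665 without it. In PS pools all 11 reads of both genes belonged to CHS.

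The reads of the chalcone synthases, which set the 3 pools with high expression apart, are also the denominator for CHIL2, so that its smaller share there is a description. This share of the reads of CHIL2, CHS J and CHS was 27.4% (24.2 to 30.8) in PS+CH replicate 2, 25.9% (18.2 to 34.8) in PS+CH replicate 3 and 39.6% (32.9 to 46.6) in PS+CH replicate 5. It was 19 of 21 reads, 90.5% (69.6 to 98.8), in PS+CH replicate 1 (Fisher's exact test over 5 pools, adjusted p = 1.09e-09). PS+CH replicate 1 had 2 reads of CHS and PS+CH replicate 4 had 0, with none of CHS J in either. The share is high there for that reason, so that nothing is read from this p. Without PS+CH replicate 1 the unadjusted p was 0.000666, for the remaining spread between PS+CH replicates 2 to 5. In PS, 46 reads of CHIL2 stood beside 11 reads of CHS and none of CHS J. CHIL2 had more reads than both chalcone synthases together in each PS pool and in PS+CH replicates 1 and 4.

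F3'H and CHIL2 were the only pair of the 5 with reads of both in every pool. F3'H gave 12.0, 11.1, 22.3, 2.64 and 3.82 reads per CHIL2 read in PS replicates 1 to 5 and 1.79, 5.25, 5.37, 12.0 and 4.60 in PS+CH replicates 1 to 5. The treatments overlapped widely, and the 3 pools with high pathway expression lay close together, between 4.60 and 5.37. These 3 pools had 30 to 197 CHIL2 reads. CHIL2 had only 2 to 17 reads in PS pools, and 19 and 2 reads in PS+CH replicates 1 and 4. The wide scatter outside the 3 pools thus rests on few CHIL2 reads. As shares of F3'H and CHIL2 reads, PS+CH replicate 1 had 64.2% (49.8 to 76.9) of F3'H and the other PS+CH pools between 82.1% and 92.3% (Fisher's exact test over 5 pools, adjusted p = 0.00835). Without PS+CH replicate 1 the unadjusted p was 0.550. Over all 10 pools log2 CPM of both genes had a Pearson r of 0.88 and a Spearman rho of 0.82. The r was 0.86 after subtraction of treatment means and 0.60 without PS+CH replicates 2 and 5, the pools farthest from the median. Over the 15 pairs of the genes described here, r lay between 0.77 and 0.98 and rho between 0.37 and 0.98. The low rho values all involved DFR, at 0.37 with F3'H, 0.45 with CHS and 0.53 with CHIL2. Without PS+CH replicates 2 and 5, r of DFR was 0.46 with F3'H, 0.66 with CHS and 0.30 with CHIL2. The remaining pairs had a rho of 0.798 or more, among them DFR with CHS J and with MYB111. These values are a description, without a p, since the genes were chosen on the treatment contrast.

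DFR relative to F3'H also differed among the pools with high expression. DFR held 19.3% (17.2 to 21.6) of the reads of both genes in PS+CH replicate 2, 25.8% (20.1 to 32.2) in PS+CH replicate 3 and 11.7% (8.82 to 15.1) in PS+CH replicate 5 (Fisher's exact test over 5 pools, adjusted p = 3.49e-05). The difference held without each pool in turn, with an unadjusted p of at most 0.0173. PS+CH replicate 3, with a high share of DFR, also had the highest share of CHS J, and PS+CH replicate 5 was below PS+CH replicates 2 and 3 in both shares.

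Relative to the chalcone synthases, MYB111 held 12.1% (9.61 to 15.0) of the reads of MYB111, CHS J and CHS in PS+CH replicate 2, 2.27% (0.276 to 7.97) in PS+CH replicate 3 and 8.09% (4.11 to 14.0) in PS+CH replicate 5 (Fisher's exact test over 4 pools, adjusted p = 0.0146). The unadjusted p was 0.186 without PS+CH replicate 2 and 0.395 without PS+CH replicate 3. PS+CH replicate 3 thus had 86 reads of the chalcone synthases with 2 reads of MYB111.

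**Figure D3:**
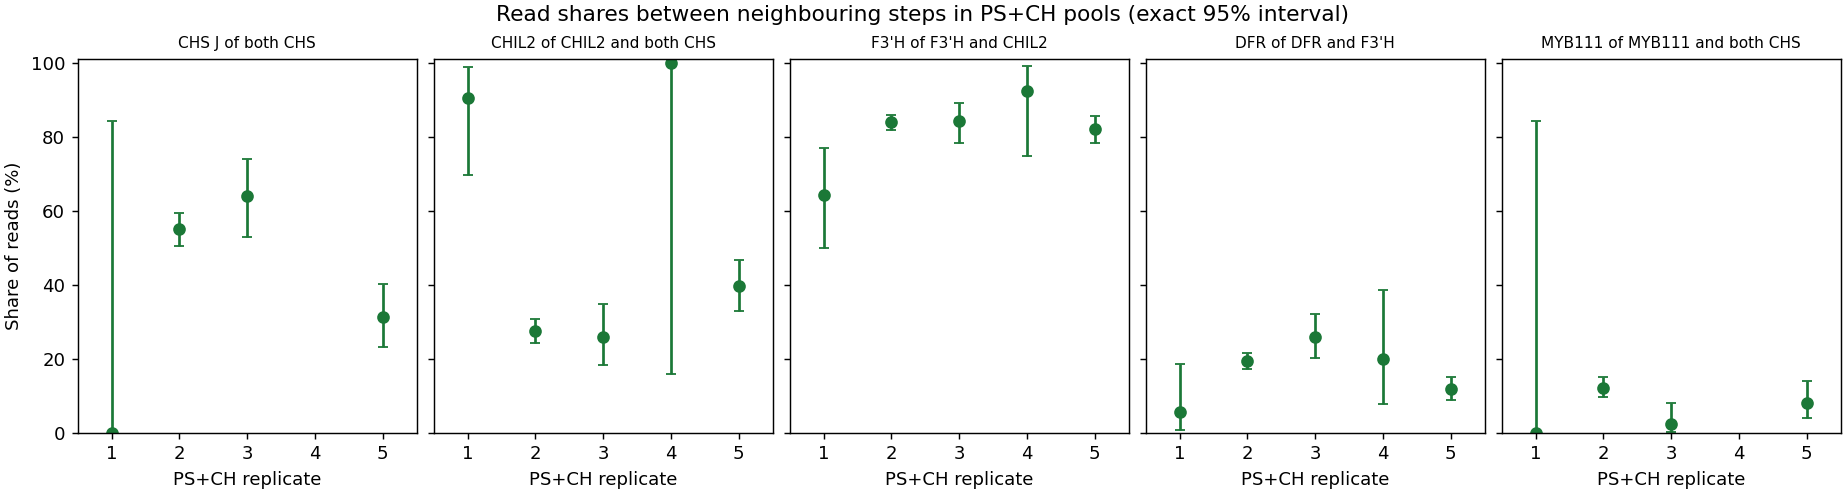
Share of reads in percent (vertical axis) of the gene named first in each panel among the reads of the genes named after it, for each PS+CH replicate (horizontal axis). Bars are exact 95% intervals and cover counting error only; the share of CHS J is 55.0% and 64.0% in replicates 2 and 3 and 31.2% in replicate 5.

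Counted as shares of the reads of all 6 genes, F3'H made up between 71.2% and 90.5% in PS pools. In PS+CH replicates 2, 3 and 5 it made up 49.9%, 48.1% and 58.4%, and in PS+CH replicates 1 and 4 it made up 59.6% and 75.0%. All PS+CH pools but PS+CH replicate 4 were below every PS pool. MYB111 was 3.47%, 0.597% and 1.71% in PS+CH replicates 2, 3 and 5. The makeup of the PS and low PS+CH pools rests on 28 to 125 reads.

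**Figure D4:**
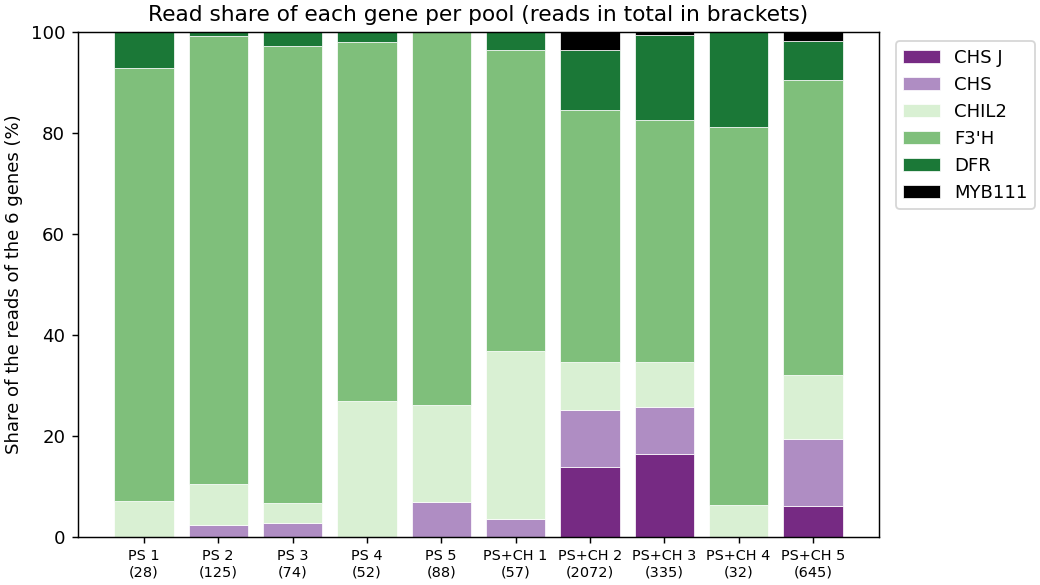
Share of each of the 6 genes in their summed reads in percent (vertical axis) for the 10 root pools, with the number of reads in brackets. F3'H takes 71.2% to 90.5% of the reads in PS pools, and CHS J and MYB111 appear in PS+CH replicates 2, 3 and 5.

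Further pathway genes were limited to 3 that the study names with a locus tag, chalcone synthase 3 (CHS3, LSAT_4X147220), bHLH42 (LSAT_5X190001) and glutathione S-transferase F11 (GSTF11, LSAT_3X87760), as no table at hand gave product names for the locus tags. They are targets of the study's RT-qPCR primers and are absent from its list of changed root genes. The study took these targets from known defense genes and from genes changed in its sequencing data. The 3 may thus have been picked on the same contrast, and the p-values below are not independent of that choice. The filter on low counts left out all 3. Without the filter, in a fit where 2.68% of 28458 genes were called and 0.383% were called higher in PS+CH, 1 of the 3 passed the thresholds (GSTF11, higher). Their log2-fold changes went both ways, so that the median of 1.68, beside 0.0067 over all genes in that fit, is the value of bHLH42 alone.

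GSTF11 belongs to an enzyme family that couples glutathione to small molecules and of which an Arabidopsis member takes part in moving flavonoids into the vacuole. It had 0, 1, 4, 1 and 2 reads in PS replicates 1 to 5 and 0, 147, 46, 0 and 31 reads in PS+CH replicates 1 to 5. These are the same 3 high pools as for CHS J, with no read in PS+CH replicates 1 and 4. The edgeR test without the filter gave it a log2-fold change of 4.76 ± 1.28 (SE) and an adjusted p of 0.0324. With 1 pool left out, this p lay between 0.0242 and 0.0770 (without PS+CH replicate 2) and passed in 3 of 10 cases. Log2 CPM gave an unadjusted p of 0.167 in a two-sided exact permutation test.

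CHS3, a member of the chalcone synthase family, was lower on average in PS+CH and did not pass the test. It had 8, 5, 13, 12 and 7 reads in PS replicates 1 to 5 and 3, 1, 4, 3 and 5 reads in PS+CH replicates 1 to 5. Of the 5 PS+CH pools, 4 were below every PS pool, and the lowest value, 1 read, was in PS+CH replicate 2. In the edgeR test without the filter, its log2-fold change was -1.38 ± 0.45 (SE) with an adjusted p of 0.0597. The exact permutation test gave an unadjusted p of 0.0159. bHLH42, the counterpart of TT8 in Arabidopsis, a partner of MYB factors in late flavonoid steps, had 1, 3, 1, 6 and 0 reads in PS and 3, 10, 8, 4 and 10 reads in PS+CH. The pools overlapped, and the same edgeR fit gave 1.68 ± 0.66 (SE) with an adjusted p of 0.107. The unadjusted p was 0.0317 in the exact permutation test.

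Peroxidases use phenylpropanoid products on the way to lignin, and Peroxidase 12 (LSAT_6X101780), Peroxidase 11 (LSAT_8X37660) and LSAT_3X105460 are on the study's list of genes lower in chitin-treated roots, so that their difference is a description as well. All PS+CH pools were below all PS pools, with ratios of mean CPM of 0.333, 0.258 and 0.255 in this order, and the lowest PS+CH pool of each was PS+CH replicate 2.

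Genes whose expression over the 10 pools was most like the mean profile of the 6 were sought among 23503 others. The 6 genes themselves correlated with the mean of the remaining 5 at a Pearson r between 0.89 (CHIL2) and 0.98 (CHS), and 69 other genes reached at least the lowest of these. The 5 with the highest r were LSAT_8X66261 (r = 0.99), LSAT_6X76700 (r = 0.99), LSAT_3X102861 (r = 0.98), LSAT_6X76240 (r = 0.98) and LSAT_2X44620 (r = 0.98). Their names are not given in the sources used here. By Spearman's rho in place of Pearson's r, none of these 5 was among the first 5. LSAT_8X66261, the most alike, had 0, 103, 11, 0 and 25 reads in PS+CH replicates 1 to 5 and none in PS. LSAT_6X76700 had 98, 9 and 19 reads in PS+CH replicates 2, 3 and 5, and LSAT_6X76240 had 311, 18 and 28. LSAT_3X102861, with 17, 3 and 4 reads there, and LSAT_2X44620, with 12, 2 and 3, reached the minimum of 10 counts only in PS+CH replicate 2 and were at or near the floor of 3 counts elsewhere. GSTF11 stood at rank 10 with an r of 0.96. These correlations carry no p, and rest mainly on PS+CH replicates 2, 3 and 5. Among the 6 genes, the Spearman rho of a pair was as low as 0.37 (F3'H and DFR).

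Photosynthesis genes are markers of green tissue, and 7 of them (photosystem subunits and a leaf-type ferredoxin-NADP reductase) that the study lists as higher in chitin-treated roots were followed beside the 6 genes. The study gives their names and their locus tags in separate lists, which were joined by fold change and chromosome, so that the names are inferred. All 7 had their highest expression in PS+CH replicate 2 as well, which was the highest pool for 12.5% of the 23509 genes with at least 10 counts in 1 pool. The study listed both sets as higher in PS+CH from these libraries. Their shared highest pool and the pool order below are therefore a description. Their summed level was 3.78, 3.96, 2.78, 12.7 and 2.29 CPM in PS replicates 1 to 5 and 10.1, 49.5, 13.0, 2.90 and 16.4 CPM in PS+CH replicates 1 to 5. All 7 had reads in 8 of the 10 pools, and 6 of 7 in PS replicates 1 and 5, so that green markers were not at 0 in any pool. In PS+CH the 5 pools had the same order in this sum as in the summed CPM of the 6 genes, which was 3.25, 115, 19.3, 1.82 and 36.5 CPM. In PS no pool had the same rank in both sums. PS replicate 4 had 12.7 CPM of the green markers with 2.82 CPM of the 6 genes, where PS+CH replicate 3 had 13.0 and 19.3 CPM. CPM of the 6 genes per CPM of the green markers ranged from 0.222 to 2.10 in PS and from 0.320 to 2.33 in PS+CH. The part of green tissue in the flavonoid gene counts was not tested.

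**Figure D5:**
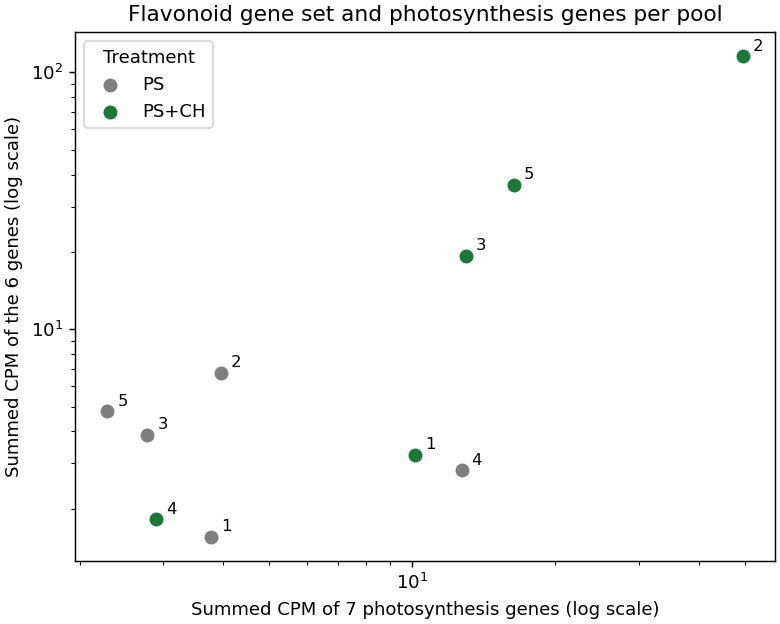
Summed CPM of the 6 genes (vertical axis, log scale) against summed CPM of 7 photosynthesis genes (horizontal axis, log scale), 1 point per pool labelled by its replicate number, PS in grey and PS+CH in green. PS+CH replicate 2 is highest on both axes (115 and 49.5 CPM), while PS replicate 4 combines 12.7 CPM of photosynthesis genes with 2.82 CPM of the 6 genes.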

How the data were processed

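Strand-specific mRNA libraries of 10 root pools were sequenced on a DNBSEQ platform. The authors checked the reads (FastQC 0.11.9), aligned them to the L. sativa cultivar Salinas genome, version 7 (STAR 2.7.10), and deposited raw counts per gene (featureCounts 2.0.1). How reads that match several genes were counted is not given in the sources used here, so that counts of chalcone synthase genes are uncertain where copies are alike. Replicate numbers are those of the sample titles, which differ from the numbers in the library names, and each replicate is 1 pool of 5 plants.

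Counts were scaled by TMM and tested by edgeR 4.0.16 (quasi-likelihood, filterByExpr with a minimum count of 10) in R 4.3.3, with Benjamini-Hochberg adjustment over all genes kept. On simulated counts this test called 184 of 200 genes changed by a log2 fold of 2, and 4 others, among 21987 genes. The changed genes were drawn from those the filter kept and were shifted in every PS+CH pool. The simulation therefore does not show how the test treats genes that the filter leaves out or that are high in only some pools. The study's thresholds were used. DESeq2 1.42.0 served as an alternative, together with other scalings, no filter, a replicate block and each pool left out. Fisher's exact and permutation tests used R and SciPy 1.17.1 (Python 3.11.15). Log2 CPM had a prior count of 2, and 3 counts per library were the floor. A ratio to PS was a lower bound where all PS pools had 0 counts. The plan had been to use the bound wherever the PS mean was under the floor, and for CHS and DFR the ratio with its counting interval (exact, 95%) was given instead.

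The 6 genes and all lists were chosen with earlier results of these data known. Named genes were the 6, the 3 further pathway genes with a locus tag in the study, 3 peroxidases (the tag LSAT_3X105460 was inferred by fold change), and the 5 genes with the highest Pearson r to the mean profile of the 6. Product names, protein and promoter sequences were not matched to the locus tags, so that wider pathway lists were not used here.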

Additional observations from a re-analysis of the deposited data

Results flagged for a closer look

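In 5 of 20 groups of 5 pools that were examined, the highest pool lay far from the others, with a gap to the next pool above 0.71 of the whole range (Dixon's 95% critical value). Chance gives such a gap in about 1 in 20 independent normal groups. These groups share pools, and the genes are near 0 in most pools and were chosen on the same values, so that nothing is read from the number of gaps. PS+CH replicate 2 was this pool for CHS J (16.0 CPM, a gap of 0.802 of the range), DFR (13.8 CPM, 0.772), MYB111 (4.01 CPM, 0.845) and the summed photosynthesis genes (49.5 CPM, 0.712). In PS it was PS replicate 4 for the summed photosynthesis genes (12.7 CPM, 0.839), while the 6 flavonoid genes summed to 2.82 CPM there.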

How the results depend on the processing

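The edgeR test called 728 genes, and leaving out 1 pool gave 375 (without PS replicate 3) to 887, with 461 without PS+CH replicate 1. Without the log2-fold change threshold it called 4065. None of the 3 further pathway genes was tested with the filter. Without it 1 passed, and 1 passed in the fit without the filter and with a replicate block, an alternative added after seeing the data. The log2 ratio of mean CPM with 1 pool left out ranged from 3.05 to 5.04 for CHS J, 3.83 to 5.89 for CHS, 1.92 to 3.24 for CHIL2, 1.37 to 2.82 for F3'H, 4.65 to 6.28 for DFR and 0.18 to 2.87 for MYB111. The p for the share of CHS J ranged from 3.87e-07 to 0.0665 (without PS+CH replicate 5). The mean log2 of F3'H reads per CHIL2 read was 0.69 lower in PS+CH (PS+CH minus PS, -0.69), and -1.08 to -0.31 with 1 pool left out. By Spearman's rho, 0 of the 5 most similar genes were shared with those by Pearson's r. Medians gave no value for MYB111. Of the other alternatives, 106 stayed within a set tolerance. A further 16, for the further pathway genes, say nothing, since the filter kept these genes out of the test. The tolerance was wide, for the log2 ratio of a gene the SD of its log2 CPM over PS+CH pools. It thus took in the fall of CHS J from 4.72 to 3.05, and 524 genes called without PS+CH replicate 2 in place of 728.

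The sample titles and the library names number the pools differently, and neither is said to mark a shared unit. Pools with the same title number correlated from -0.03 to 0.49 after subtraction of treatment means, and the 4 pairs with the same library number from -0.38 to 0.02. With a replicate block by title number 902 genes of the 21936 were called in place of 728, among them CHIL2 and F3'H. Without the filter this block gave 980 of 28458 genes, among them all 6. As before, nothing is read from the calls of the 6. With a block by library number, added after seeing the data, edgeR called 0 genes, with 5690 of 21936 at an unadjusted p under 0.05 and 3 residual degrees of freedom.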
